A study of Mus musculus with 9 samples.

Results

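The lysosomal hydrolases, the subunits of the lysosomal proton pump and the TFEB-family regulators were followed in mouse CD8+ T cells with and without Tsc1. A list of 34 such genes was set by gene name, with no threshold on measured values but with earlier results of these data known. Of these genes, 30 had a probe set annotated to a single gene. Where a gene had several, the probe set brightest on average across the 9 arrays stood for it, and the measured members made up 30 of the 17097 genes tested. The V-ATPase subunit genes Atp6v0c, Atp6v1c1 and Atp6v1g1 and the sialidase gene Neu1 lacked a named probe set here, so they were not analysed. The cells recognised the model antigen OVA and were sorted as OVA-positive CD8+ T cells from the spleen of C57BL/6 mice at day 9 of infection with Listeria monocytogenes. There were 5 Tsc1-/- samples, from Tsc1-fl/fl mice that were positive for Granzyme B-cre, and 4 WT samples, from Tsc1-fl/fl mice that were negative for that cre. The Granzyme B promoter drives cre in activated cytotoxic cells. The transgene was present in every Tsc1-/- mouse and absent from every WT mouse, so cre and Tsc1 loss cannot be told apart in any difference given here.

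Lysosomes break down proteins, glycans and lipids with hydrolases that need an acidic lumen. The V-ATPase supplies the acid: its cytosolic V1 sector splits ATP, and the rotation this drives moves protons through the V0 sector in the membrane. Tsc1 is part of the complex that restrains mTORC1, a kinase that is switched on at the lysosome surface. mTORC1 phosphorylates the transcription factors TFEB and TFE3, which keeps them in the cytoplasm, while in the nucleus they bind E-box motifs in the promoters of lysosomal genes. In cytotoxic T cells, lysosome-related granules also store granzymes, which the lysosomal protease cathepsin C activates.

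The promoters of the list were searched for the E-box core CACGTG, to which TFEB and TFE3 bind, in windows of 250 bases before to 50 bases after each gene's start, taken from RefSeq on mouse build GRCm38.p6. The core reads alike on both strands. Of the 34 members, 27 had a window, and 9 of these (33.3%) held the core: Mcoln1, Atp6v0b, Atp6v0d1, Atp6v0e, Atp6v1a, Ctsa, Ctsd, Ctsl and Gla. Over all 27025 genes with a window the share was 8.09%. The longer form TCACGTGA, which contains that core, lay in 7 of the 27 (25.9%), against 1.12% of all genes. A match of letters is a description of the window and shows neither binding nor control. The 250 bases before the start are shown for 3 members that hold the core at more than 1 place, from the protease, pump and ion channel groups, and for Gusb, the member that passed the test of expression. Capitals mark the core, and each strand is read 5′ to 3′.
Ctsd, cathepsin D, chr7:142387828-142388077, minus strand: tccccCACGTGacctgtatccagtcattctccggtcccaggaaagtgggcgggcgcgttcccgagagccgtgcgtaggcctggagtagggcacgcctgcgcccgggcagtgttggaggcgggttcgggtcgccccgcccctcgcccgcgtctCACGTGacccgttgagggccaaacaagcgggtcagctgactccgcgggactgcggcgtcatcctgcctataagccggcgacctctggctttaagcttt
Atp6v0b, V0 proteolipid, chr4:117887330-117887579, minus strand: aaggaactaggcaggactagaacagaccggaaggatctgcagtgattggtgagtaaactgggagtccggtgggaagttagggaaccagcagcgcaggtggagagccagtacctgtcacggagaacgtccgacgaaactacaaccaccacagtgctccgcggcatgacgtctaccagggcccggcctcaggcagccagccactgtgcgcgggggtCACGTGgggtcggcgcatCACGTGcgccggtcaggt
Mcoln1, lysosomal calcium channel, chr8:3500269-3500518, plus strand: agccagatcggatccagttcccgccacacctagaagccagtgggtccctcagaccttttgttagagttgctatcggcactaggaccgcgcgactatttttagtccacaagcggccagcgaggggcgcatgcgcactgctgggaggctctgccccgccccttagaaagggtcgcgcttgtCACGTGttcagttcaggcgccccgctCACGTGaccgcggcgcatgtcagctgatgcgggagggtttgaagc
Gusb, beta-glucuronidase, chr5:130003050-130003299, minus strand: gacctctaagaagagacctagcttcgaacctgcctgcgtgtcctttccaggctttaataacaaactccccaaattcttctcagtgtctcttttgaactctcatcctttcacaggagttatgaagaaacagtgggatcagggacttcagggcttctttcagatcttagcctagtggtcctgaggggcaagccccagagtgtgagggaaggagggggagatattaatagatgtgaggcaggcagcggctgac
In the Ctsd window the first bases of the core lay at -245 and -98 from the start, in Atp6v0b at -36 and -18, and in Mcoln1 at -71 and -45. The Gusb window held none. The 9 members with the core differed between genotypes by a median of 0.25 on the log2 scale, with a positive difference, Tsc1-/- minus WT, in 7 of them and none past the test. The other 16 measured members with a window had a median of 0.14, with a positive difference in 9 and 1 past the test. The differences ranged from -0.06 to 0.30 with the core and from -0.39 to 0.44 without it. Of the 9 with the core, 4 are pump genes, Atp6v0b, Atp6v0d1, Atp6v0e and Atp6v1a. Whether the core went with a difference was not tested, and all genes with the core were not compared.

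**Figure D1:**
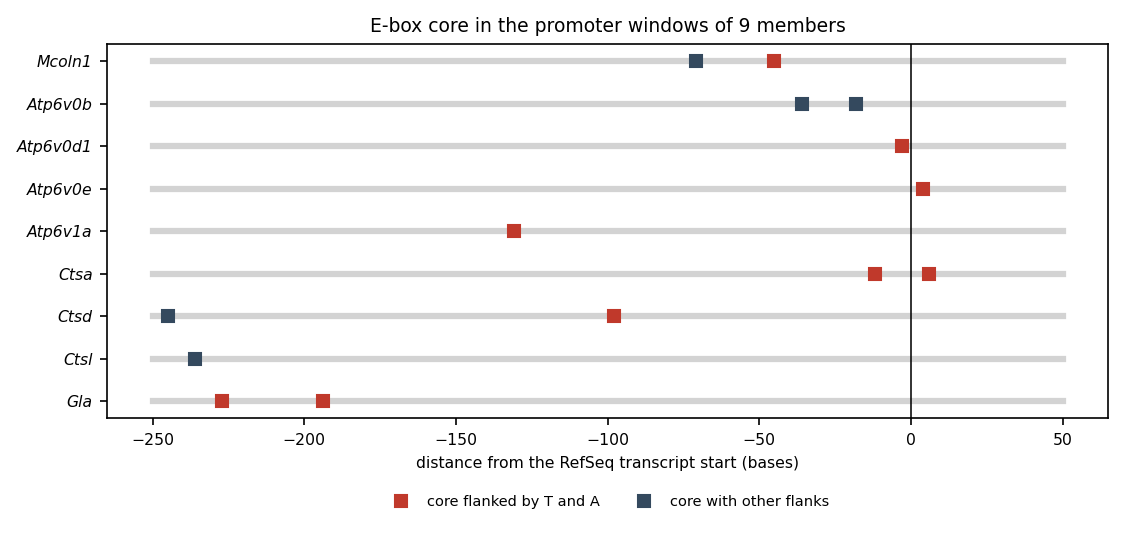
Places of the core CACGTG in the promoter windows of the 9 members that hold it, with the distance in bases from the gene's start on the x axis a row for each gene, and red squares where the core stands between T and A. The cores of Atp6v0d1 and Atp6v0e lie closest to the start, at -3 and 4, and that of Ctsd at -245 lies farthest.

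Levels below are the deposited log2 values, differences are Tsc1-/- minus WT, and a gene was called at an adjusted p under 0.05 (limma, Benjamini-Hochberg over all 17097 genes). Tsc1 itself read 7.43, 7.27, 7.51, 7.44 and 7.35 in Tsc1-/- replicates 1 to 5, against 7.77, 7.61, 7.71 and 7.56 in WT replicates 1 to 4. Every Tsc1-/- array was below every WT array, and the difference was -0.26 (SE 0.08, adjusted p = 0.114, limma). Further Tsc1 probe sets differed by -0.32 and -0.01. Whether any of them reads the deleted exons was not analysed here, so Tsc1 is only a partial check of the labels. The CD8 T cell markers, 6 of 7 measured, averaged 11.57 to 11.63 on the Tsc1-/- arrays and 11.57 to 11.63 on the WT arrays. Of the macrophage and monocyte markers, 16 of 17 were measured, 15 had a negative difference and none was called. Their mean per array was 5.88 to 6.21 in Tsc1-/- against 6.07 to 6.67 in WT. The high end of the WT range came from replicates 1 to 3 (6.51, 6.67 and 6.58), while replicate 4 read 6.07. B cell markers, 9 of 10 measured and 8 of them with a negative difference, averaged 5.94 to 6.33 in Tsc1-/- and 6.17 to 6.81 in WT. The 2 NK cell markers averaged 5.425 to 5.701 in Tsc1-/- and 5.773 to 6.030 in WT, with no overlap between the groups. All 5 measured dendritic cell markers and all 4 measured neutrophil markers also had negative differences, and the means of these lists differed by -0.21 and -0.41. Both overlapped: dendritic cell means were 6.71 to 7.08 in Tsc1-/- and 6.86 to 7.19 in WT, neutrophil means 6.05 to 8.52 and 7.06 to 8.09. Of 3 erythroid markers 2 had a negative difference. Of the 2 CD4 T cell markers 0 did, and their mean differed by 0.09. The part of these cells in the members' differences was not tested, beyond fits with the macrophage or the B cell marker mean. These log2 values have no zero, so no marker can be listed as absent. In sorted bulk samples, fewer cells of a type and less RNA per cell cannot be told apart.

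Among the members, 1 gene rose in Tsc1-/- cells, Gusb, and most of the listed proton pump genes had positive differences that did not pass. Of the 13 listed and measured genes of the V-ATPase and its accessory proteins, 12 had a positive difference, by a median of 0.25. The comparison list of other lysosomal genes, given below, held 7 further measured subunit genes. Of these, 6 had a negative difference, and the median was -0.09. Over the 20 measured pump and accessory genes of both lists, 13 were positive and 7 negative, with a median of 0.14. Of the 7 cathepsins, 3 had a positive and 4 a negative difference, with Ctsc at 0.40 and Ctsz at -0.39 at the ends of the range. The regulators Tfeb and Mcoln1 differed by -0.02 and -0.06. Over all 30 members, 20 (66.7%) had a positive difference, against 48.2% of all genes, and the median was 0.14, against -0.01 for all genes. Bright genes as a whole leaned the same way: of the 8549 genes at or above the median level of 6.34, 57.6% had a positive difference, with a median of 0.03.

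At the adjusted threshold, 1 of the 30 members (3.33%) was higher, against 0.971% of all genes, and 0 were lower, against 0.31% of all genes (limma). At an adjusted p under 0.1, 3 members were higher, Gusb, Ctsc and Atp6ap1, against 3.09% of all genes, and 1 was lower, Ctsz, against 1.22%. At an unadjusted p under 0.05, 13 members (43.3%) were higher, against 9.83% of all genes, and 2 (6.67%) were lower, against 7.34%. Bright genes as a whole reached these thresholds more often. In a fit without genes below the median level, 15 of 28 members and 2224 of 8549 genes had an unadjusted p under 0.05 in either direction. With all genes kept, these were 15 of 30 and 2936 of 17097. In the fit without dim genes, 4 of 28 members and 542 of 8549 genes were higher at the adjusted threshold. All Tsc1-/- arrays lay above all WT arrays in 4 members (13.3%), Atp6v0e, Atp6v1f, Ctsc and Gusb, against 5.08% of all genes. They lay below in 1 (3.33%), Ctsz, against 2.88%. Because the members were chosen with earlier results known, these shares describe the list and are no test of it.

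**Figure D2:**
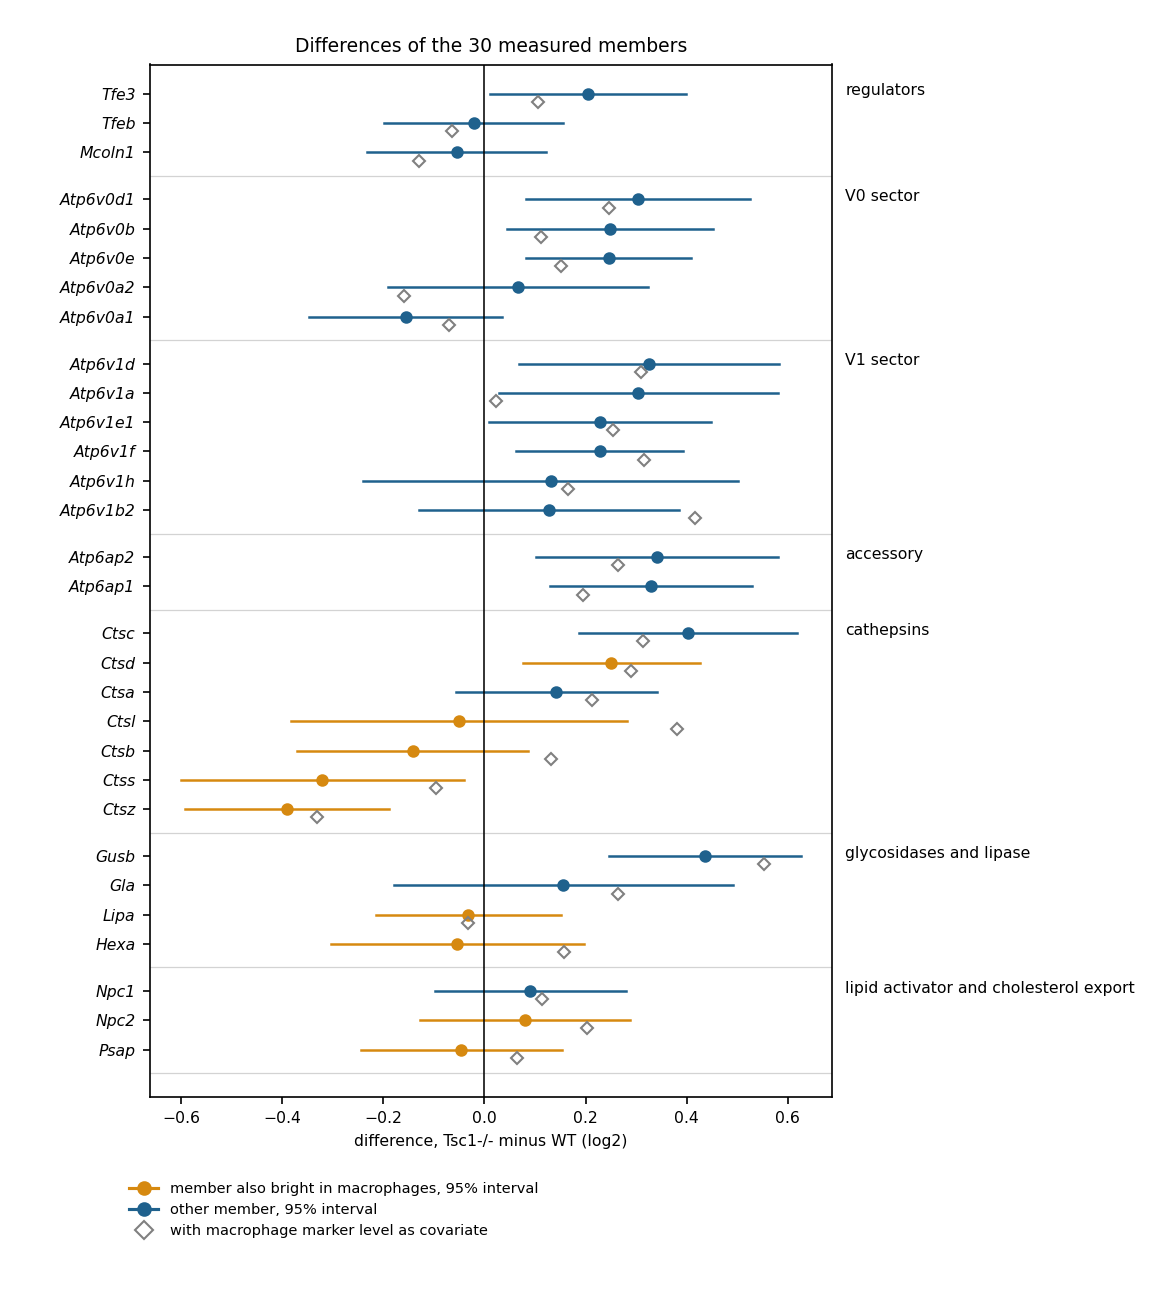
Difference between Tsc1-/- and WT on the log2 scale (x axis) for each of the 30 measured members (rows, grouped by role), with the 95% interval of limma and, as open diamonds, the difference from a fit with each array's macrophage marker mean added as a covariate. The points of 12 of the 13 listed genes of the pump and its accessory proteins lie right of 0, while 7 of the 9 members that macrophages also express brightly lie left of it.

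None of the 3 regulators passed the test. Tfeb, the master regulator of lysosomal genes, read 6.90, 7.06, 6.94, 7.19 and 7.10 in Tsc1-/- replicates 1 to 5, against 6.99, 7.10, 7.10 and 7.04 in WT replicates 1 to 4. The WT values all lay within the Tsc1-/- range, and the difference was -0.02 (95% interval -0.20 to 0.16, adjusted p = 0.926, limma). Tfe3, its relative with the same DNA motif, read 7.19, 7.25, 7.41, 7.38 and 7.55 in Tsc1-/-, against 7.02, 7.21, 7.18 and 7.20 in WT. Tsc1-/- replicate 1 lay within the WT range and the other 4 lay above it, at a difference of 0.20 (95% interval 0.01 to 0.40, adjusted p = 0.267, limma). Mcoln1, the lysosomal channel whose calcium release activates a phosphatase of TFEB, read 7.36, 7.44, 7.31, 7.47 and 7.25 in Tsc1-/-, against 7.39, 7.29, 7.49 and 7.52 in WT. The groups overlapped, and the difference was -0.06 (95% interval -0.23 to 0.12, adjusted p = 0.783, limma). These are RNA levels, and where in the cell the TFEB and TFE3 proteins lay was not measured.

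Of the V0 sector, 5 of 6 listed genes were measured. Atp6v0d1, which couples the membrane rotor to the central stalk, read 8.69, 8.98, 8.83, 9.09 and 9.17 in Tsc1-/- replicates 1 to 5, against 8.65, 8.75, 8.59 and 8.61 in WT replicates 1 to 4. All but Tsc1-/- replicate 1 were above the WT range, and the difference was 0.30 (SE 0.10, adjusted p = 0.147, limma). Atp6v0e, a small membrane subunit, read 9.49, 9.57, 9.61, 9.59 and 9.74 in Tsc1-/-, against 9.35, 9.34, 9.31 and 9.42 in WT. All Tsc1-/- arrays were above all WT arrays, and the difference was 0.25 (SE 0.08, adjusted p = 0.117, limma). Atp6v0b, a proteolipid of the rotor ring whose promoter is shown above, read 8.50, 8.72, 8.67, 8.54 and 8.83 in Tsc1-/-, against 8.28, 8.36, 8.38 and 8.59 in WT. WT replicate 4 lay above 2 of the Tsc1-/- arrays, and the difference was 0.25 (SE 0.09, adjusted p = 0.196, limma). Of the isoforms of the large stator subunit, Atp6v0a1 differed by -0.16 (adjusted p = 0.390, limma) and Atp6v0a2 by 0.07 (adjusted p = 0.825, limma). Further probe sets of Atp6v0a2, at mean levels of 7.91 and 7.86 against 8.10, differed by 0.22 and 0.26. Its mean over probe sets differed by 0.18. Further probe sets of Atp6v0a1 differed by -0.05, 0.23 and -0.09. Atp6v0a1 was the 1 listed pump gene with a negative difference, and its probe set was dim, at 6.06 ± 0.15 (SD, n = 5) in Tsc1-/- and 6.22 ± 0.06 (SD, n = 4) in WT.

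Of the V1 sector, 6 of 8 listed genes were measured and all 6 had a positive difference, by a median of 0.23. Atp6v1a, the catalytic subunit, read 8.50, 8.51, 8.66, 8.40 and 8.62 in Tsc1-/- replicates 1 to 5, against 8.14, 7.87, 8.34 and 8.59 in WT replicates 1 to 4. The Tsc1-/- arrays lay close together, while the WT arrays spread, with replicate 4 inside the Tsc1-/- range. The difference was 0.30 (SE 0.13, adjusted p = 0.241, limma). It was 0.18 without WT replicate 2 and 0.42 without WT replicate 4, and 0.02 with the macrophage and 0.01 with the B cell marker mean as a covariate. Atp6v1d, the shaft of the rotor, read 10.17, 10.60, 10.60, 10.59 and 10.79 in Tsc1-/-, against 10.06, 10.36, 10.32 and 10.16 in WT. Tsc1-/- replicate 1 lay among the WT arrays and the other 4 above them, at a difference of 0.32 (SE 0.12, adjusted p = 0.181, limma). Atp6v1f, a partner of that shaft, read 10.12, 10.18, 10.13, 10.15 and 10.23 in Tsc1-/-, against 9.96, 9.93, 10.05 and 9.79 in WT. Here too the groups were apart, with a difference of 0.23 (SE 0.08, adjusted p = 0.147, limma). Atp6v1e1, of the peripheral stalk, differed by 0.23 (adjusted p = 0.273, limma). The nucleotide-binding subunit gene Atp6v1b2 and the regulatory subunit gene Atp6v1h each differed by 0.13 (adjusted p = 0.630 and 0.749, limma). Atp6v1h on Tsc1-/- replicate 1 was at 6.88, below the 7.54 to 7.90 of the other Tsc1-/- arrays and below all WT arrays.

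Both accessory genes had positive differences of about the same size. Atp6ap1, which helps assemble V0, read 8.63, 8.92, 8.95, 8.80 and 8.98 in Tsc1-/- replicates 1 to 5, against 8.49, 8.42, 8.55 and 8.66 in WT replicates 1 to 4. Tsc1-/- replicate 1 lay below WT replicate 4, the other 4 lay above all WT arrays, and the difference was 0.33 (SE 0.09, adjusted p = 0.0923, limma). Atp6ap2, also called the prorenin receptor, read 11.05, 11.47, 11.46, 11.52 and 11.49 in Tsc1-/-, against 10.87, 11.06, 11.23 and 11.07 in WT. Again replicate 1 was the Tsc1-/- array among the WT values, and the difference was 0.34 (SE 0.11, adjusted p = 0.135, limma). Without that array Atp6ap2 passed, at 0.43 (adjusted p = 0.0479, limma).

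Averaged over the 13 genes of the pump and its accessory proteins, the Tsc1-/- arrays read 8.72, 8.95, 8.91, 8.88 and 9.04, against 8.67, 8.67, 8.72 and 8.69 for WT. The means were 8.90 ± 0.12 (SD, n = 5) in Tsc1-/- and 8.69 ± 0.02 (SD, n = 4) in WT, a difference of 0.21. Tsc1-/- replicate 1 lay at the WT level and was the lowest Tsc1-/- array in 10 of the 13 genes (76.9%), against 25.4% of all genes. It was also the lowest in 21 of all 30 members (70%) and in 28 of 57 other lysosomal genes. Without it the median difference of the 13 genes was 0.29. At an unadjusted p under 0.05, 9 of the 13 were higher (69.2%) and 0 lower, against 9.83% and 7.34% of all genes, with adjusted p between 0.0923 and 0.825 (limma). Of the 13, 12 were at or above the median level, where genes as a whole reached that p more often, as given above. With the macrophage marker mean as a covariate, 11 of the 13 were positive, with a median of 0.19. In that fit 0 of the 13 passed, but so did 0 of all 17097 genes. The marker mean itself differed by -0.41 between genotypes, so the fit cannot fully tell it apart from genotype. Of the 12 positive without that covariate, Atp6v0b, Atp6v0e, Atp6v1a and Atp6ap1 were then smaller by over 1.5 times, and Atp6v0a2 changed sign, to -0.16. Larger by over 1.5 times was 1, Atp6v1b2. After removal of the dependence on level and gene length from each array, 12 were positive, with a median of 0.17.

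**Figure D3:**
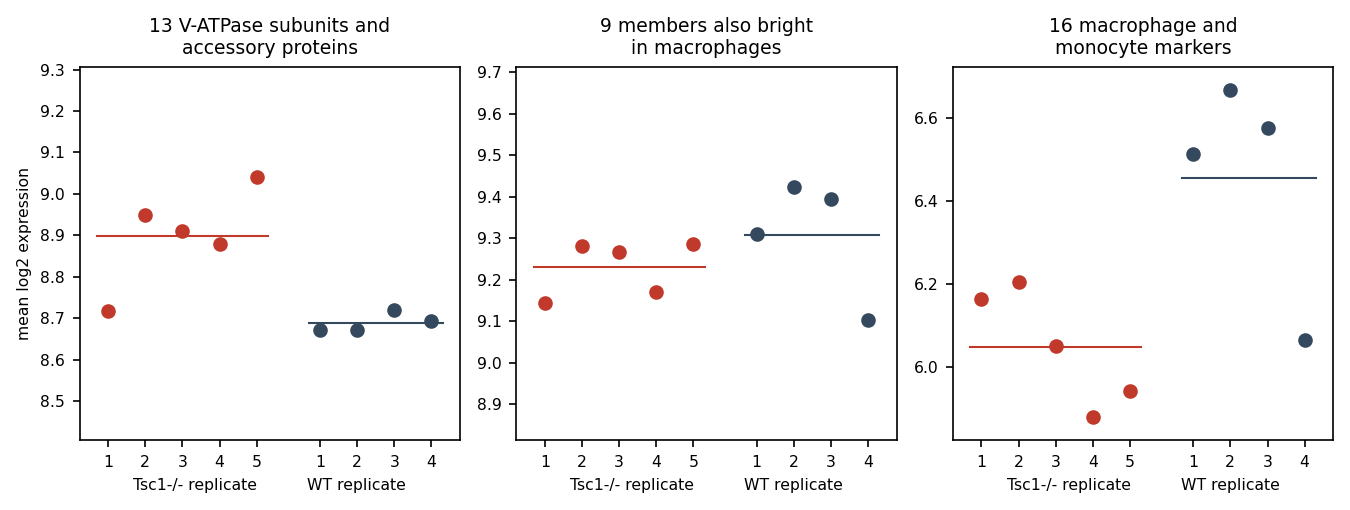
Mean log2 level per array of the 13 pump and accessory genes and of the 9 members that macrophages also express brightly, with the macrophage marker mean of each array. Tsc1-/- replicate 1 (8.72) lies at the WT level of the pump mean (8.67 to 8.72), and WT replicate 4 (9.10) lies below the other WT arrays of the 9-gene mean (9.31 to 9.42).

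The cathepsins differed in both directions, and none passed the test. Ctsc, cathepsin C, the dipeptidyl peptidase that trims granzymes to their active form, read 9.41, 9.84, 9.80, 9.69 and 9.61 in Tsc1-/- replicates 1 to 5, against 9.37, 9.12, 9.24 and 9.36 in WT replicates 1 to 4. The groups did not overlap, and the difference was 0.40 (SE 0.10, adjusted p = 0.0661, limma). Further probe sets of Ctsc differed by -0.25 (exact permutation p = 0.0238) and -0.04. The mean over Ctsc probe sets differed by 0.04 (adjusted p = 0.840, limma). Ctsd, the aspartic protease cathepsin D, read 11.33, 11.55, 11.52, 11.50 and 11.61 in Tsc1-/-, against 11.24, 11.35, 11.25 and 11.17 in WT. All but Tsc1-/- replicate 1 lay above the WT range, at a difference of 0.25 (SE 0.08, adjusted p = 0.134, limma). Ctsa, the serine carboxypeptidase that protects beta-galactosidase and neuraminidase from breakdown, differed by 0.14 (adjusted p = 0.460, limma).

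The other cysteine cathepsins, Ctsz, Ctss, Ctsb and Ctsl, all had negative differences. Ctsz, an exopeptidase, read 7.80, 7.91, 7.92, 8.07 and 8.002 in Tsc1-/- replicates 1 to 5, against 8.23, 8.56, 8.34 and 8.20 in WT replicates 1 to 4. The groups did not overlap, and the difference was -0.39 (SE 0.09, adjusted p = 0.0590, limma). Its further probe sets differed by -0.17 and -0.11. Ctss, which processes the invariant chain of MHC class II in antigen-presenting cells, read 9.60, 10.10, 9.89, 10.03 and 10.00 in Tsc1-/-, against 10.29, 10.38, 10.43 and 9.88 in WT. WT replicate 4 was the lowest WT array and lay among the Tsc1-/- values, and the difference was -0.32 (SE 0.13, adjusted p = 0.224, limma). Ctsb and Ctsl, endopeptidases of broad specificity, differed by -0.14 and -0.05 (adjusted p = 0.528 and 0.904, limma).

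Gusb, beta-glucuronidase, which removes glucuronic acid from glycosaminoglycans, was the member that rose. It read 7.59, 7.37, 7.41, 7.28 and 7.33 in Tsc1-/- replicates 1 to 5, against 7.09, 7.01, 6.86 and 6.87 in WT replicates 1 to 4. The groups did not overlap, and Tsc1-/- replicate 1, low for the pump genes, was here the highest array. The means were 7.39 ± 0.12 (SD, n = 5) in Tsc1-/- and 6.96 ± 0.11 (SD, n = 4) in WT, a difference of 0.44 (95% interval 0.25 to 0.63), or 1.35-fold. The adjusted p was 0.0375 (limma), and the exact two-sided permutation p for this gene alone was 0.00794, the smallest that 5 against 4 arrays can give. A further Gusb probe set differed by 0.14 (exact permutation p = 0.365). Gusb kept a positive difference in 20 other settings (0.29 to 0.55) and lost the threshold in 14 of them, with adjusted p between 0.0152 and 0.290 (limma).

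The other glycosidases and the lipase did not pass. Gla, alpha-galactosidase A, differed by 0.16 (95% interval -0.18 to 0.49), Hexa, the alpha subunit of beta-hexosaminidase, by -0.05 (95% interval -0.30 to 0.20), and Lipa, the acid lipase of cholesteryl esters, by -0.03 (95% interval -0.21 to 0.15). Psap, the precursor of the saposins that present sphingolipids to their hydrolases, differed by -0.05 (95% interval -0.24 to 0.15). Npc1 and Npc2, which hand cholesterol out of the lysosome, differed by 0.09 and 0.08 (95% intervals -0.10 to 0.28 and -0.13 to 0.29). For the probe sets used, the intervals allow a change of up to about 0.5 for Gla and of at most about 0.3 for the other 5. Further probe sets differed by 0.09 for Gla, by -0.03 and 0.20 for Lipa, by 0.17 for Psap, and by -0.0028 and 0.21 for Npc2. Those limits do not apply to them.

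**Figure D4:**
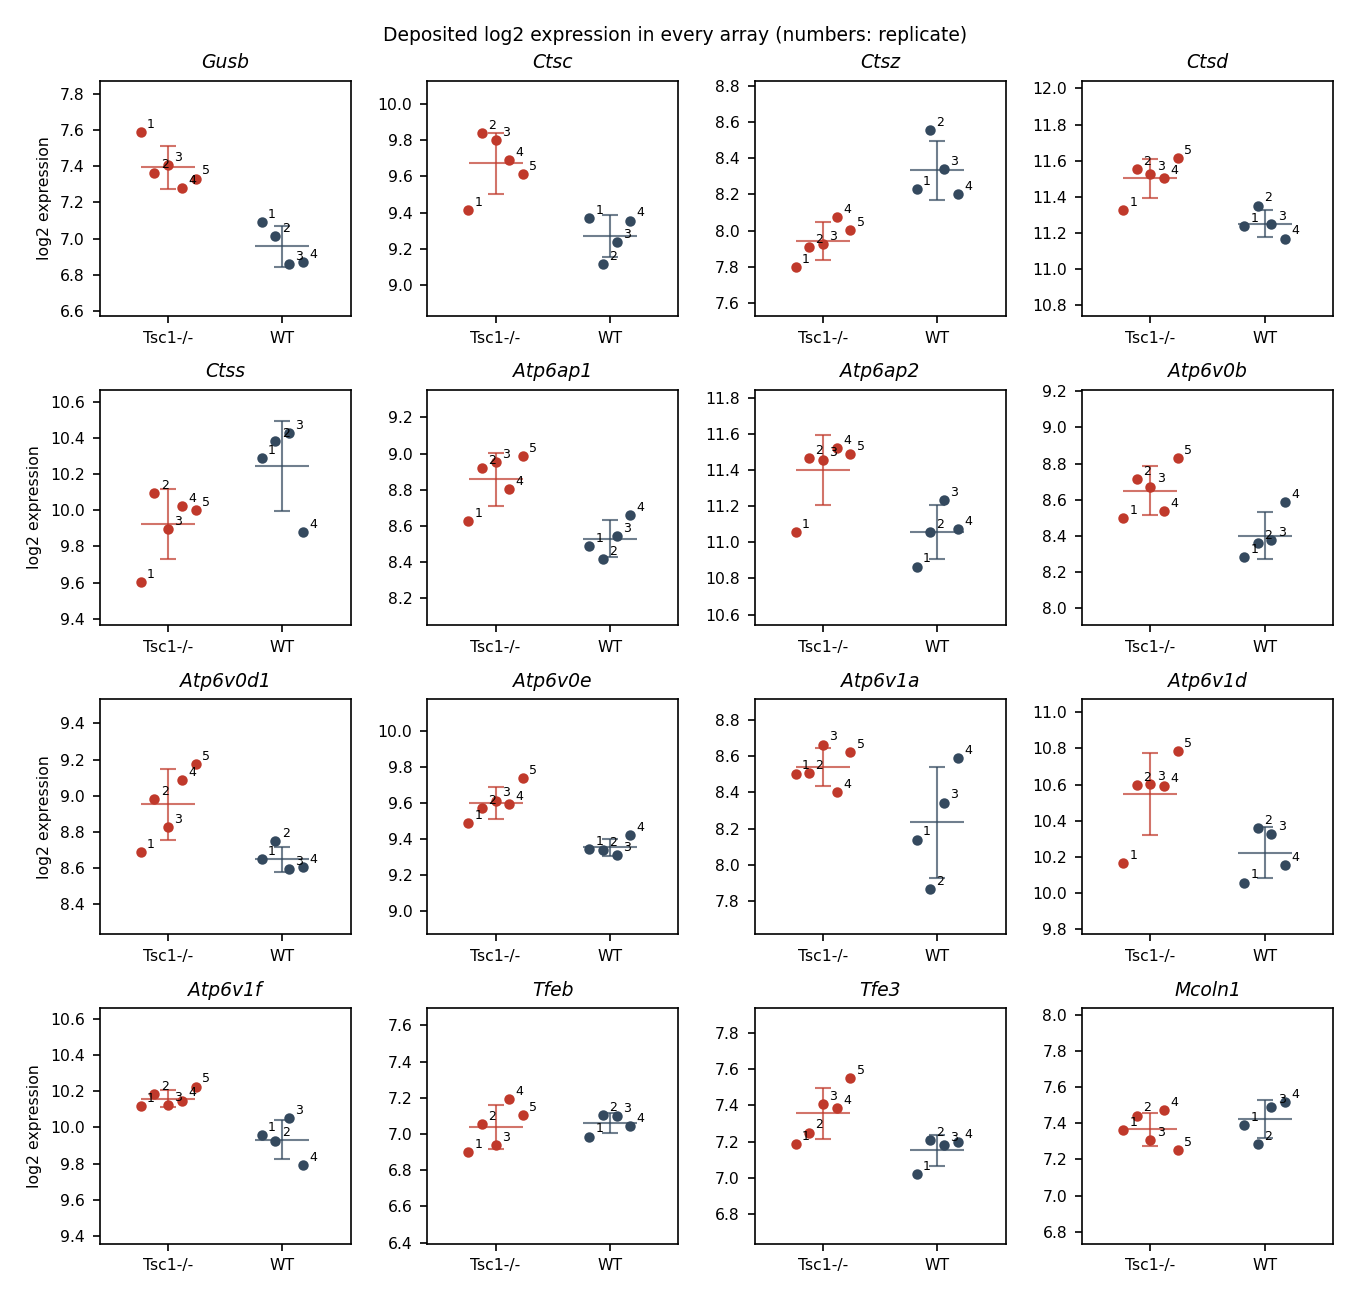
Log2 level on each array (y axis) of the members the text gives array by array, with Tsc1-/- points left of WT points in each panel and lines for the group mean and SD. The groups do not overlap for Gusb, Ctsc, Atp6v0e and Atp6v1f, with Tsc1-/- above WT, or for Ctsz, with Tsc1-/- below WT.

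Several members are also bright in macrophages, and these were followed apart. The list of these was set from textbook knowledge, not from a measurement. It held 9 members, Ctsb, Ctsd, Ctsl, Ctss, Ctsz, Hexa, Lipa, Psap and Npc2. Of them 2 had a positive and 7 a negative difference, with a median of -0.05, while of the other 21 members 18 had a positive and 3 a negative difference, with a median of 0.23. Of the 7 negative, Ctsl, Hexa and Psap were at -0.05 and Lipa at -0.03. With the mean of probe sets, 4 of the 9 were positive and 5 negative, with a median of -0.05. The mean of the 9 genes was 9.14, 9.28, 9.27, 9.17 and 9.29 on the Tsc1-/- arrays, against 9.31, 9.42, 9.40 and 9.10 on the WT arrays. WT replicate 4, which was also the lowest WT array in macrophage markers, was the lowest WT array in 8 of the 9 genes (88.9%), against 27.7% of all genes. Among the Tsc1-/- arrays the 2 did not go together. Replicate 1 was the lowest in 6 of the 9 genes (66.7%), against 25.4% of all genes. The lowest macrophage marker mean was on replicate 4 (5.88), against 6.16 on replicate 1. With the macrophage marker mean as a covariate, 6 of the 9 were positive, with a median of 0.13. Ctsl was at 0.38, Ctsb at 0.13 and Hexa at 0.16, while Ctsz was at -0.33, near its value without the covariate, and Ctss at -0.10. None of the 9 passed in that fit, in which 0 of all 17097 genes did. Without WT replicate 4 the median of the 9 was -0.14, and Ctsz passed as lower. Macrophage markers differed between the groups by -0.41 in their mean, and their part in the differences of these 9 genes was not tested beyond covariate fits.

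Of the 30 members, 18 had more than 1 probe set. All probe sets of a gene differed in the same direction for 10 of the 18, and 6 of the 7 pump and accessory genes with several were among these. Atp6ap2 differed by 0.34, 0.35 and 0.62 and Atp6v1d by 0.25, 0.25 and 0.32. Atp6v0b differed by 0.25, 0.17 and 0.0059, and its mean over probe sets by 0.14. The 8 with mixed signs were Mcoln1, Atp6v0a1, Ctsa, Ctsb, Ctsc, Lipa, Psap and Npc2. The probe sets used for Atp6v0b, Atp6v1e1, Atp6ap1, Atp6ap2, Ctsz and Lipa are of types that can detect related transcripts.

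A further list of 65 lysosomal genes outside the members, with membrane proteins, further pump subunits, proteases, glycosidases, sulfatases, lipases and regulators, served for comparison, and 57 were measured. Of these, 30 had a positive and 27 a negative difference, with a median of 0.01 (0.14 for the 30 members), and 1 rose (1.75%), against 0.971% of all genes. That gene was Lamp2, a membrane protein that protects the lysosome from its hydrolases. It read 7.58, 8.34, 8.34, 8.22 and 8.43 in Tsc1-/- replicates 1 to 5, against 7.54, 7.27, 7.45 and 6.92 in WT replicates 1 to 4. Tsc1-/- replicate 1 lay just above the WT arrays and the other 4 well above, at a difference of 0.89 (SE 0.17, adjusted p = 0.0359, limma). Lamp2 stayed positive in 20 other settings and lost the threshold in 11 of them, with adjusted p between 0.00793 and 0.317 (limma). Of the genes next in order of p, Sumf1, the activator of sulfatases, differed by 0.41 (adjusted p = 0.0590, limma) and Ostm1, the partner of a lysosomal chloride transporter, by 0.32 (adjusted p = 0.0903, limma). Tpp1, a tripeptidyl peptidase, differed by 0.49 (adjusted p = 0.0903, limma), and Smpd1, the acid sphingomyelinase, by 0.43 (adjusted p = 0.0966, limma). At an unadjusted p under 0.05, 10 of the 57 were higher and 2 were lower, Slc38a9, a lysosomal amino acid transporter (-0.27), and Atp6v0d2, the other isoform of V0 subunit d (-0.27). The 7 pump subunits of this list were Tcirg1 (-0.05), Atp6v0d2, Atp6v0e2 (0.16), Atp6v1b1 (-0.09), Atp6v1c2 (-0.01), Atp6v1e2 (-0.12) and Atp6v1g2 (-0.13). None of the 7 passed, and all but Tcirg1 read below the median gene level. The promoter core CACGTG lay in 14 of the 52 of this list with a window (26.9%), against 33.3% of the members with one.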

How the data were processed

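RNA from 9 samples was hybridised to 1 expression microarray each. The deposited values are log2 expression per probe set, for which the submitters' processing notes name RMA (background correction, quantile normalization, summary of probes) and Partek 6.5. The sources used here give no options or filters. Total RNA (12 ng) was amplified and biotin-labelled, per the labels' protocols. Quantile normalization hides a change shared by most transcripts. Array medians lay between 5.97 and 6.05, and precision is limited by the number of arrays.

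Of 45037 probe sets, the platform annotation gave 1 gene for 28898, several for 551 and none for 15588. Symbols were updated by Entrez identifier to the RefSeq table of GRCm38.p6 (28689 matched), and each of 17097 genes was read by its brightest probe set on average across the 9 arrays. Groups follow the genotype in the labels. The test was limma's (version 3.58.1, lmFit then eBayes, R 4.3.3), two-sided, with genotype as the only term, and p-values were Benjamini-Hochberg adjusted over all genes. The test was tried on simulated data. The sources do not say whether samples came from separate animals, so the p-values reflect only how these samples spread.

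Members, gene lists and tests were chosen with earlier results of these data known. Values on every array were to be given for Tfeb, Tfe3 and Mcoln1, for members past the threshold or with no overlap between genotypes, and for the 4 V-ATPase subunits and 4 other members with the largest absolute difference. Those of Atp6ap1, Ctsd and Ctss were added after their values were seen. Of other lysosomal genes, those past the threshold were to be named, and the 4 with the next smallest p, the pump subunits and the lower genes at an unadjusted p under 0.05 were added in the same way. Alternatives were the mean of probe sets, probe sets not joined, dim genes left out, quantile normalization, median centring, array weights, robust estimation with a variance trend, a block for the replicate number, the macrophage or B cell marker level as a covariate, leaving out each array, an adjusted p under 0.1, and, added after the data were seen, removal of each array's trend on level and gene length (loess, span 0.3). The replicate block left out Tsc1-/- replicate 5, which has no WT array of its number. Promoters were matched by symbol (27 of 34). Figures were drawn in Python 3.11.15.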

Additional observations from a re-analysis of the deposited data

Results flagged for a closer look

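Of 80 sets of arrays tested for a single array far from the rest of its group, 6 held such an array, and chance flags about 1 in 20 groups. Tfe3 on WT replicate 1 was at 7.022, against 7.18 to 7.208 on the other WT arrays. Atp6ap2 on Tsc1-/- replicate 1 was at 11.05, against 11.46 to 11.52 on the other Tsc1-/- arrays, and Lamp2 on the same array was at 7.578, against 8.223 to 8.429. Among marker lists, the NK cell mean was 5.425 on Tsc1-/- replicate 4, against 5.694 to 5.701 on the other Tsc1-/- arrays. The erythroid mean was 5.232 on WT replicate 4, against 5.635 to 5.653, and the CD4 T cell mean was 6.932 on WT replicate 3, against 6.699 to 6.726.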

How the results depend on the processing

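The counts of calls moved with the setting and with single arrays. Members called higher and lower were 1 and 0 as reported, 3 and 1 at an adjusted p under 0.1, 0 and 0 with the mean of probe sets, 4 and 1 with dim genes left out, 0 and 0 after quantile normalization, 2 and 0 after median centring, 5 and 1 with a variance trend and robust estimation, 3 and 1 with array weights, and 0 and 1 with the trend on level and gene length removed, the alternative added after the data were seen. Over all genes the counts in the same order were 166 and 53 as reported, 529 and 209, 174 and 64, 542 and 140, 43 and 34, 338 and 63, 509 and 171, 340 and 125, and 64 and 48. Other lysosomal genes called higher were 1 as reported, 5, 2, 5, 0, 2, 5, 2 and 1, with 0 lower in each. With the macrophage or the B cell marker mean as a covariate, limma called 0 members, 0 other lysosomal genes and 0 genes in either direction, while 1661 and 1602 genes had an unadjusted p under 0.05. Same-numbered arrays did not visibly deviate together (correlations of -0.10, 0.09, -0.07 and 0.02). The labels do not say what the numbers stand for, so a weak pairing could be missed. The fit with the replicate number as a block also left out Tsc1-/- replicate 5. In it 0 genes were called in each list, with 2354 at an unadjusted p under 0.05. Without that array and with no block, 1 gene was higher and 1 lower, with 2554 at an unadjusted p under 0.05. With 1 array left out, 0 to 2 members were higher and 0 to 1 lower, 1 to 297 genes were higher and 1 to 159 lower, and 0 to 2 other lysosomal genes were higher and 0 to 1 lower. The extremes over all genes were 297 and 159 without WT replicate 4, and 1 and 1 both without Tsc1-/- replicate 5 and without WT replicate 1. The members' median difference lay between 0.09 and 0.18. Median centring shifted the median of all genes to 0.02.

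Over 20 other settings, 21 of the 30 members never changed sign, and 9 did at least once, each from a difference that had not passed. With the macrophage and the B cell covariate, Atp6v0a2 was at -0.160 and -0.142, Ctsb at 0.131 and 0.0793, Ctsl at 0.381 and 0.267, Hexa at 0.157 and 0.103, and Psap at 0.0636 and 0.0521. With the mean of probe sets, Ctsa was at -0.0489, Lipa at 0.0473 and Psap at 0.0597. Tfeb was at 0.00746 after median centring and Atp6v0a2 at -0.00249 after quantile normalization. With 1 array left out, Tfeb ranged from -0.0594 to 0.0138, Atp6v0a2 from -0.0147 to 0.155, Atp6v1b2 from -0.00449 to 0.207, Ctsl from -0.199 to 0.0567, Hexa from -0.142 to 0.0355, Lipa from -0.0757 to 0.00457, and Psap from -0.0883 to 0.00524. The cause was not tested. Among members not called, Ctsc and Ctsz passed in 5 settings each, Atp6ap1 in 3, Atp6v0e in 2, and Atp6ap2 and Ctsd in 1 each.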
